A study of Rattus norvegicus with 20 samples.

Results

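The facilitative glucose transporters are membrane proteins of the SLC2 family, also called GLUTs, and 10 genes of the family were followed here through inguinal white adipose tissue (iWAT), a subcutaneous fat depot, of ZSF1 rats. The members were taken by gene symbol as Slc2a1, Slc2a3, Slc2a4, Slc2a5, Slc2a6, Slc2a8, Slc2a9, Slc2a10, Slc2a12 and Slc2a13 and are 10 of the 32545 genes of the count table. All 10 passed the filter on low counts, which kept genes with reads in more than 10 of the 20 libraries, and so belong to the 17653 genes tested. RNA of iWAT from 5 rats per group was sequenced in 4 groups. The Cmpd 1 group was made up of obese rats fed Purina 5008 chow mixed with Cmpd 1, an inhibitor of protein kinase C α and β, at about 50 mg per kg per day. The Food matched group was made up of obese rats on drug-free chow, in an amount set each week by what the Cmpd 1 rats had eaten in the week before. Rats of the Obese group carried both deficient leptin receptor alleles (Lepr fa and Lepr cp), as did those of the Cmpd 1 and Food matched groups, and received drug-free chow. Lean rats of the same ZSF1 strain, which are not deficient for both alleles, received the same drug-free chow. All rats were male, were 21 to 22 weeks old when the groups were formed, and were kept on the regimen for 10 weeks, to an age of about 32 weeks. The deposited phenotype of the Food matched samples reads lean, whereas their titles name obese rats, and they were taken as obese.

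Hexoses cross a cell membrane through these carriers down their concentration gradient, without energy from ATP. In fat cells GLUT4, the product of Slc2a4, is held in vesicles inside the cell, and insulin, acting through its receptor, IRS proteins, PI3-kinase and Akt, brings those vesicles to the cell surface. Other members serve basal uptake (GLUT1), fructose (GLUT5), urate (GLUT9) or myo-inositol (the proton-coupled carrier of Slc2a13), and several sit mostly on membranes inside the cell.

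Between 31716457 and 65759306 reads per library were counted in the Cmpd 1 group, 54649679 to 74784655 in the Food matched group, 56743417 to 70206686 in the Obese group and 50604956 to 68048796 in the Lean group. Lepr, the leptin receptor gene, lay between 1.34 and 1.62 CPM (counts scaled to the size of each library, with TMM factors) in the Cmpd 1 group, 1.41 and 2.32 CPM in the Food matched group, 1.24 and 1.89 CPM in the Obese group, and 2.95 and 11.99 CPM in the Lean group. All 6 adipocyte markers examined were read in every library, with a summed level of 14911 to 23877 CPM. Lean rats 1 and 2 stood apart, with summed skeletal muscle markers of 2801 and 4848 CPM, against 18.5 to 21 CPM in the other Lean rats. Food matched rat 5 had 78.4 CPM of the same markers, and the remaining libraries of the 3 obese groups had 6.04 to 17.7 CPM. Lean libraries also had higher sums of other marker lists. The 3 obese groups had 6.51 to 24.2 CPM of liver and gut markers, 87.1 to 153 CPM of neutrophil markers and 16.3 to 27.1 CPM of Schwann cell markers, whereas the Lean group had 91.5 to 195 CPM, 473 to 564 CPM and 21.9 to 308 CPM of these lists. Mpo made up most of the neutrophil sum, at a mean of 497 CPM in Lean and 127 CPM in Obese rats. Of the other neutrophil markers, Csf3r was higher in Obese rats (4.84 against 3.20 CPM). S100a8 (0.547 and 0.553 CPM) and S100a9 (0.871 and 1.26 CPM) were low in Obese and Lean rats. Alb made up most of the liver and gut sum (110 CPM in Lean, 16.1 CPM in Obese rats), and median Apoa1 was 0.254 and 0.227 CPM. The Schwann cell sum was highest in Lean rat 4 and over 100 CPM in Lean rats 1, 2 and 5, while Lean rat 3 lay within the range of the obese groups. These levels go with every comparison with Lean rats, and their part in those results was not tested. Results that rest on Lean rats 1 and 2 are given with and without them, or with a range over analyses that include leaving them out. In bulk tissue fewer cells of a type and less RNA per cell cannot be told apart.

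Slc2a4 had the highest mean level per length of the 10 members. On the RPKM scale (CPM per kilobase of gene length), the mean levels over the 20 libraries were 42.4 for Slc2a4, 12.2 for Slc2a9, 11.5 for Slc2a8, 8.82 for Slc2a13 and 5.17 for Slc2a1. Slc2a10 followed at 2.11 RPKM, Slc2a6 at 1.39, Slc2a5 at 1.13, Slc2a12 at 0.620 and Slc2a3 at 0.148. The lowest Slc2a4 library (20.4 RPKM) lay above the highest Slc2a9 library (16.04 RPKM). The libraries of Slc2a9, Slc2a8 and Slc2a13 overlapped in level, as did those of Slc2a13 and Slc2a1, those of Slc2a10 and Slc2a6 and those of Slc2a6, Slc2a5 and Slc2a12, so that their places in this order are not separated by the spread between libraries. Slc2a3 (17 to 64 reads per library) reached at most 0.243 RPKM, under every library of the other members except Slc2a6, whose lowest library was a Lean one at 0.193 RPKM. Of the remaining family members on the list of other sugar carriers, Slc2a2 had 40 reads in all, from 6 libraries, and Slc2a7 had 6 reads from 1 library, and neither passed the filter.

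The group means changed the make-up of the family. Slc2a4 made up 48.8 ± 2.76% of the summed RPKM of the 10 genes in the Cmpd 1 group, 34.5 ± 4.52% in the Food matched group, 39.5 ± 3.32% in the Obese group and 66.3 ± 2.03% in the Lean group (SD, n = 5 rats each). Slc2a9, second in the mean order, held 14.5 ± 1.04%, 19.96 ± 2.13% and 18.2 ± 1.65% in the Cmpd 1, Food matched and Obese groups, against 8.11 ± 0.825% in the Lean group. The summed level was 86.5 ± 3.43 RPKM in the Cmpd 1 group, 72.4 ± 2.69 RPKM in the Food matched group, 71.9 ± 3.58 RPKM in the Obese group and 111 ± 4.30 RPKM in the Lean group. Slc2a4 itself stood at 42.3 ± 4.01, 25.1 ± 4.17, 28.5 ± 3.61 and 73.8 ± 4.2 RPKM in the Cmpd 1, Food matched, Obese and Lean groups. Its gap to the Lean group was larger than that of the sum in each obese group. The other members together were therefore higher in the mean of each obese group than in the Lean group.

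**Figure D1:**
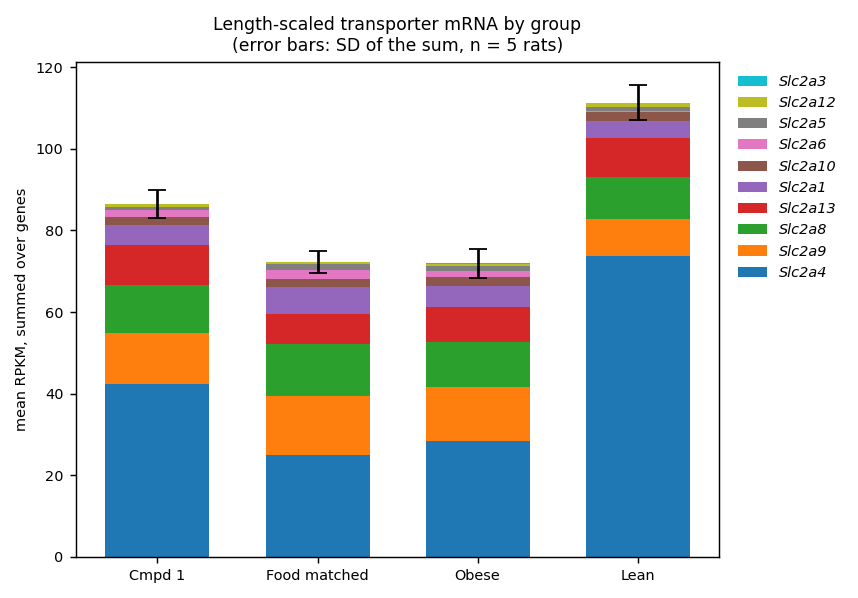
Mean RPKM of the 10 transporter genes stacked by group (Cmpd 1, Food matched, Obese, Lean), with Slc2a4 at the base and error bars for the SD of the sum over 5 rats. The Slc2a4 segment is 73.8 RPKM in the Lean group and 28.5 RPKM in the Obese group, while the stack above it changes less.

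The disease comparison of Obese with Lean rats called 1 of the 10 transporters higher and 1 lower, where called means a fold change over 1.5 and a Benjamini-Hochberg adjusted p under 0.05 in edgeR's quasi-likelihood test on all genes. Across all 17653 genes 22.3% were called in this comparison, 11.3% higher and 11.0% lower. The 2 called transporters were Slc2a4, which fell, and Slc2a6, which rose, and they had the 2 largest fold changes of the 10. Without a fold threshold 5 members passed, beside 48.2% of all genes.

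Slc2a4 encodes GLUT4, the insulin-responsive carrier of fat and muscle (rn6 chromosome 10, 56552983 to 56558487, minus strand). Its CPM was 98.5, 94.8, 110.0, 120.4 and 107 in Cmpd 1 rats 1 to 5, 57.8, 51.1, 61.03, 64.99 and 79.2 in Food matched rats, 78.3, 78.3, 59.2, 64.2 and 76.8 in Obese rats and 183, 196, 187, 168 and 190.4 in Lean rats. Every Lean rat was above every other animal, every Cmpd 1 rat was above every Food matched and every Obese rat, and the Food matched and Obese rats overlapped. In the Obese group Slc2a4 was 2.59-fold lower than in the Lean group, or −1.37 (standard error 0.10, adjusted p = 1.7e-09) on the log2 scale. The 95% interval was −1.58 to −1.16. The groups of 3 of the 10 members (Slc2a4, Slc2a6 and Slc2a9) did not overlap between Obese and Lean rats, beside 33.6% of all genes.

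Of the 6 adipocyte markers, Adipoq, Lipe and Cidec were called lower in Obese rats and 0 were called higher. Fabp4, which had 8746 CPM in Obese and 8472 CPM in Lean rats and is a large part of the marker sum, was at a log2 fold change of 0.05 (adjusted p = 0.67). The summed level ranged from 16004 to 18579 CPM in Obese rats and from 20662 to 23877 CPM in Lean rats. Slc2a4 per 1000 CPM of these markers was 4.00 ± 0.361 in the Obese group and 8.13 ± 0.823 in the Lean group (SD, n = 5 each). The Obese to Lean ratio was 0.492, against 0.780 for the marker sum, in which Fabp4 did not fall. The part of the adipocyte markers in the Slc2a4 difference was not tested beyond this. Without Lean rats 1 and 2 Slc2a4 was still called lower, as it was in all 29 alternative analyses, which gave log2 fold changes of −1.40 to −1.31.

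**Figure D2:**
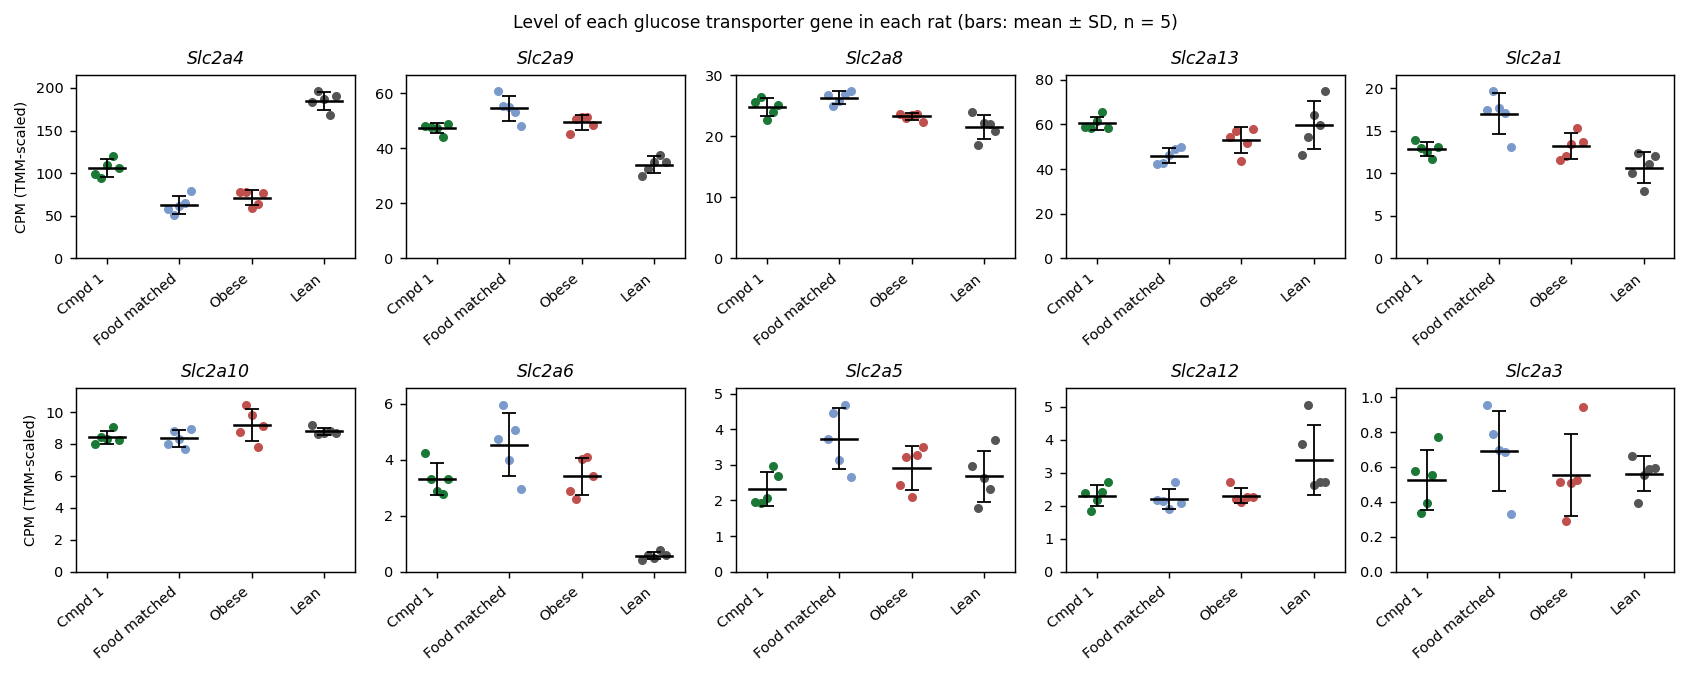
CPM of each transporter in each rat, by group (Cmpd 1, Food matched, Obese, Lean), with genes ordered by mean RPKM, black bars for the mean and whiskers for the SD (n = 5). The 5 Lean rats lie between 168 and 196 CPM for Slc2a4, above all other rats, and between 0.411 and 0.789 CPM for Slc2a6, under all other rats.

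Slc2a6 encodes GLUT6, which in mouse macrophages sits on lysosomal membranes (rn6 chromosome 3, 5568321 to 5575136, minus strand). Its CPM was 4.22, 3.32, 2.87, 2.76 and 3.32 in Cmpd 1 rats, 4.73, 5.96, 3.98, 5.05 and 2.96 in Food matched rats, 2.88, 2.6, 4.02, 4.1 and 3.41 in Obese rats and 0.411, 0.608, 0.498, 0.789 and 0.596 in Lean rats. All 15 obese animals were above all 5 Lean animals, and the 3 obese groups overlapped one another. In the Obese group Slc2a6 rose 5.81-fold over the Lean group. On the log2 scale this was 2.54 (standard error 0.21, adjusted p = 5.1e-09), in a 95% interval of 2.11 to 2.97. The gene was read between 21 and 461 times per library, so the Lean values are the least precise. Its span shares 3744 bases with Cacfd1 on the opposite strand, and since whether strand was used in counting is not given, reads of both cannot be told apart. Cacfd1 itself differed little between Obese and Lean rats, and the log2 difference was 0.02 (adjusted p = 0.80).

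Macrophage markers were called in both directions. Of 8, Cd68, Mrc1, Itgax and Trem2 were called higher and Cd163 was called lower, with log2 fold changes of 2.09, 1.08, 3.09, 2.38 and −1.40. C1qa was also lower, at −0.37 (adjusted p = 0.014), under the fold threshold and with no overlap of the groups. Their summed level was 1712 to 2180 CPM in Obese rats and 1208 to 1377 CPM in Lean rats, and all 8 were read in every library. Slc2a6 per 1000 CPM of these markers was 1.71 ± 0.171 in the Obese group and 0.455 ± 0.101 in the Lean group, a ratio of 3.77, against 1.55 for the marker sum. That sum mixes markers that rose with Cd163 and C1qa, which fell from 191 and 314 CPM in Lean to 72.3 and 242 CPM in Obese rats. The ratio depends on this mix. The log2 fold change of Slc2a6, 2.54, lay between those of Trem2 and Itgax and above those of the other markers. The part of macrophages in the Slc2a6 difference was not tested beyond this.

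**Figure D3:**
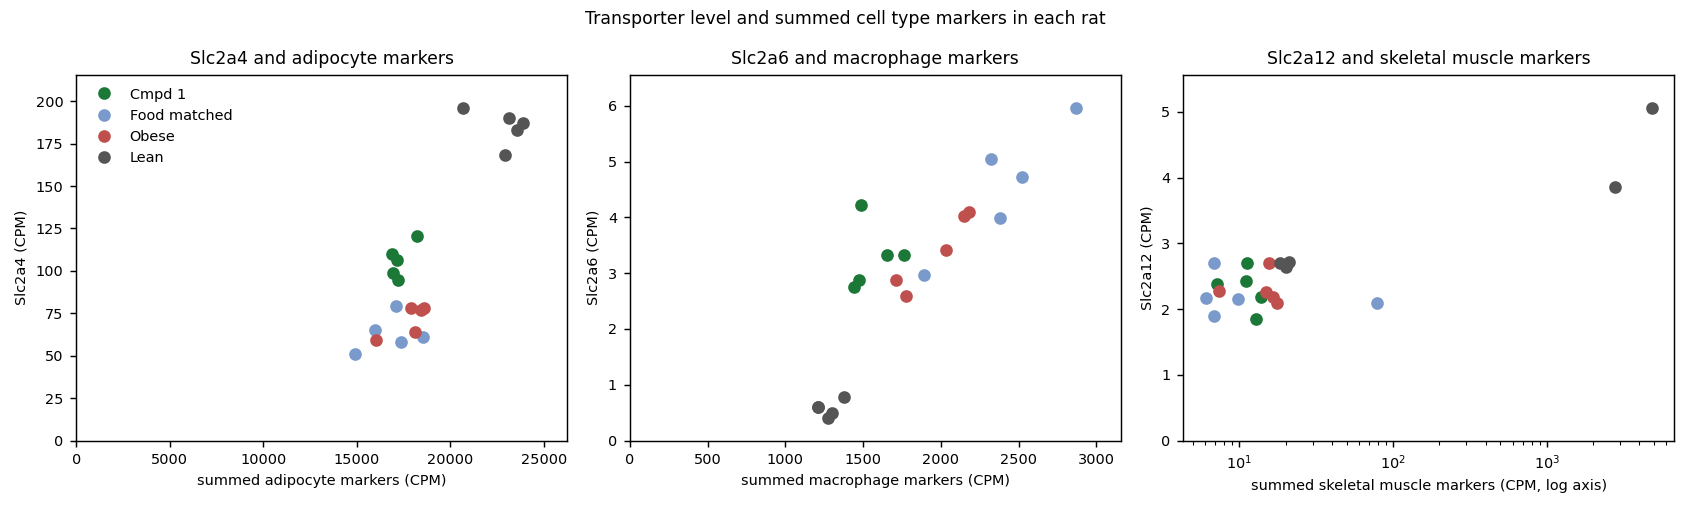
Each point is 1 rat, with the summed CPM of a marker list on the horizontal axis and the CPM of a transporter on the vertical axis: Slc2a4 with adipocyte markers, Slc2a6 with macrophage markers and Slc2a12 with skeletal muscle markers (log axis). The 2 Lean rats with 2801 and 4848 CPM of muscle markers have the 2 highest Slc2a12 values, 3.86 and 5.06 CPM.

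A further 3 members passed the adjusted p without reaching a 1.5-fold change between Obese and Lean rats. Slc2a9, the urate carrier GLUT9 (rn6 chromosome 14, 77067503 to 77192702, plus strand), had CPM of 48.2, 47.9, 47.2, 44.1 and 48.7 in Cmpd 1 rats, 60.7, 55.3, 55.1, 53.3 and 48.3 in Food matched rats, 45.1, 50.8, 51.4, 51.5 and 48.5 in Obese rats and 29.98, 32.6, 35.2, 37.7 and 35.1 in Lean rats. No obese animal of any group was as low as the highest Lean rat. The Obese to Lean log2 fold change was 0.53 (standard error 0.06, adjusted p = 5.4e-07), a 1.45-fold difference just under the threshold of 1.5. Slc2a1, the widespread basal carrier GLUT1 (rn6 chromosome 5, 138154673 to 138182897, plus strand), had CPM of 13.9, 12.9, 12.5, 11.7 and 13.1 in Cmpd 1 rats, 17.4, 19.6, 17.7, 17.1 and 13.04 in Food matched rats, 11.5, 11.97, 13.4, 15.3 and 13.6 in Obese rats and 10.002, 12.4, 7.9, 11.04 and 11.97 in Lean rats. Obese and Lean rats overlapped for Slc2a1, which differed by 0.30 (adjusted p = 0.032) on the log2 scale. Over 29 alternatives the adjusted p of Slc2a1 was 0.017 to 0.086, so it did not pass in all of them.

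Slc2a12, which encodes GLUT12, was highest in the Lean rats with muscle transcripts. Its CPM was 2.37, 1.84, 2.19, 2.42 and 2.71 in Cmpd 1 rats, 2.17, 2.15, 1.9, 2.71 and 2.09 in Food matched rats, 2.7, 2.19, 2.1, 2.26 and 2.28 in Obese rats and 3.86, 5.06, 2.64, 2.72 and 2.71 in Lean rats. Lean rats 1 and 2 were the 2 highest of the 20 animals, and the other 3 Lean rats were at the top of the range of the obese groups or within it. The Obese to Lean log2 fold change was −0.56 (adjusted p = 0.0098), and without Lean rats 1 and 2 it was −0.22 (adjusted p = 0.23), in a range over 29 alternatives of −0.63 to −0.22 and of adjusted p of 0.0045 to 0.23.

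The Cmpd 1 against Food matched comparison, which sets the compound against about the same intake of food, called 1 of the 10 transporters higher and 1 lower. Across all genes 6.19% were called, 1.54% higher and 4.65% lower. Slc2a4 rose and Slc2a5 fell. With the adjusted p alone 5 members passed, beside 22.8% of all genes, and the rats of 2 of the 10 (Slc2a4 and Slc2a13) did not overlap, beside 14.9% of all genes.

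In the Cmpd 1 group Slc2a4 averaged 106 ± 10.05 CPM, against 62.8 ± 10.4 CPM in the Food matched group (SD, n = 5 each). It was 1.69-fold higher, or 0.76 (standard error 0.10, adjusted p = 7.4e-05) on the log2 scale, in a 95% interval of 0.55 to 0.96. All 29 alternatives called it, with log2 fold changes of 0.69 to 0.85. The summed adipocyte markers differed by 1.03 times, and 0 of the 6 markers were called. With the adjusted p alone, Adipoq, Lipe and Plin1 were higher in the Cmpd 1 group (log2 fold changes of 0.47, 0.52 and 0.25) and Fabp4 was lower (−0.29). Fabp4, at 7173 CPM in Cmpd 1 and 8778 CPM in Food matched rats, is a large part of the sum. The sum therefore hides these opposite changes. Slc2a4 per 1000 CPM of adipocyte markers was 6.13 ± 0.468 in the Cmpd 1 group and 3.75 ± 0.584 in the Food matched group, a ratio of 1.64. This ratio depends on the weight of Fabp4 in the sum. The part of the adipocyte markers in the Slc2a4 difference was not tested.

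Slc2a5, the fructose carrier GLUT5 (rn6 chromosome 5, 167141875 to 167174310, plus strand), had CPM of 1.97, 1.93, 2.06, 2.97 and 2.69 in Cmpd 1 rats, 3.72, 4.46, 3.13, 4.69 and 2.67 in Food matched rats, 2.43, 3.23, 2.1, 3.29 and 3.5 in Obese rats and 2.97, 1.8, 2.64, 2.32 and 3.7 in Lean rats. The Food matched group was the highest in the mean, and its rats overlapped those of every other group. Slc2a5 was 1.62-fold lower in Cmpd 1 than in Food matched rats, or −0.69 (standard error 0.20, adjusted p = 0.018) on the log2 scale. This call was lost when Food matched rat 2 was left out (−0.62, adjusted p = 0.051) and when Food matched rat 4 was left out (−0.60, adjusted p = 0.055), in a range of adjusted p of 0.0043 to 0.055 over 29 alternatives.

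Of the 8 macrophage markers, Cd68, Mrc1, Itgax and Trem2 were called lower and 0 were called higher, and the summed level was 1442 to 1761 CPM in Cmpd 1 rats and 1891 to 2870 CPM in Food matched rats, a ratio of 0.652. Slc2a5 per 1000 CPM of these markers was 1.501 ± 0.366 in the Cmpd 1 group and 1.56 ± 0.274 in the Food matched group, a ratio of 0.965. The corresponding ratio was 1.13 for Slc2a6, 1.16 for Slc2a1 and 1.32 for Slc2a9. Scaled to summed endothelial markers instead, Slc2a1 had a ratio of 0.695. The part of macrophages or endothelium in these values was not tested. Slc2a6 itself, at 3.3 ± 0.575 CPM in Cmpd 1 and 4.54 ± 1.13 CPM in Food matched rats, had a log2 fold change of −0.46 (adjusted p = 0.086) and was not called.

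Slc2a13, a proton-coupled myo-inositol carrier named HMIT (rn6 chromosome 7, 132430853 to 132757558, minus strand), separated the compound group from its food control without passing the fold threshold. Its CPM was 59.1, 58.2, 61.5, 65.4 and 58.5 in Cmpd 1 rats, 42.1, 42.9, 46.5, 49.1 and 49.8 in Food matched rats, 54.3, 57.1, 43.7, 51.9 and 58.1 in Obese rats and 46.2, 54.5, 64.3, 59.5 and 74.9 in Lean rats. Every Cmpd 1 rat was above every Food matched and every Obese rat. The Lean rats, from 46.2 to 74.9 CPM, overlapped each of the other groups. The Cmpd 1 to Food matched log2 fold change was 0.39 (standard error 0.10, adjusted p = 0.0061), a 1.31-fold difference. Against Lean rats, Slc2a13 was at −0.38 (adjusted p = 0.0026) in the Food matched group. The values against Lean were −0.18 (adjusted p = 0.14) in the Obese group and 0.01 (adjusted p = 0.92) in the Cmpd 1 group. Slc2a1 and Slc2a9 were lower in Cmpd 1 than in Food matched rats, by log2 fold changes of −0.40 (adjusted p = 0.013) and −0.21 (adjusted p = 0.02), with groups that overlapped. Over 29 alternatives the adjusted p was 0.0023 to 0.043 for Slc2a1 and 0.0054 to 0.070 for Slc2a9.

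**Figure D4:**
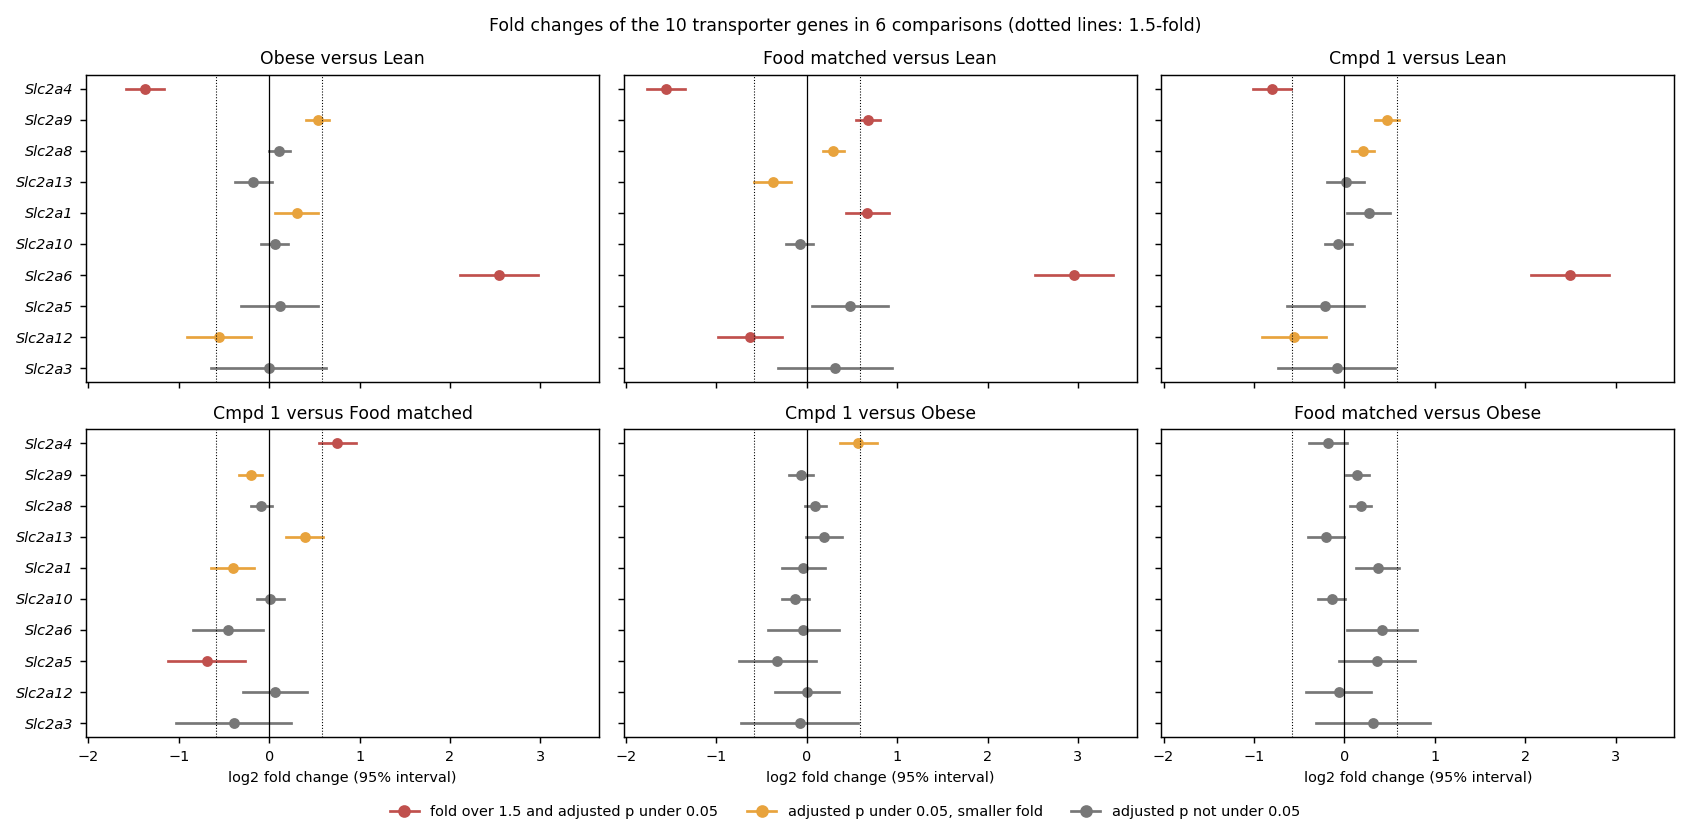
Log2 fold change of each transporter with its 95% interval in 6 comparisons, with the group named first over the group named second and dotted lines at a fold of 1.5. Slc2a4 is to the left of 0 in the 3 comparisons with Lean (−1.37, −1.56 and −0.80) and at 0.76 for Cmpd 1 versus Food matched, and Slc2a6 is at 2.54, 2.96 and 2.5 in the 3 comparisons with Lean.

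Against Obese rats the Cmpd 1 group had 0 transporters called, beside 3.53% of all genes, by edgeR, limma-voom and DESeq2 alike, with 1 member at an unadjusted p under 0.05 in edgeR, beside 28.1% of all genes. That member was Slc2a4, which also passed the adjusted p (14.0% of all genes), at 106 ± 10.05 CPM in the Cmpd 1 group and 71.4 ± 9.04 CPM in the Obese group. Its log2 fold change was 0.57 (standard error 0.10, adjusted p = 0.0015), a 1.49-fold difference that just missed the threshold of 1.5. It passed the threshold in 6 of 29 alternatives, at up to 0.63 with library size alone, and the whole range was 0.51 to 0.63. Slc2a4 and Slc2a13 were the 2 members whose rats did not overlap, beside 10.8% of all genes, and Slc2a13 had a log2 fold change of 0.19 (adjusted p = 0.21).

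The Food matched and Obese groups, of which only the first had its ration set, had 0 members called, and 0% of all genes were called. In the paper, intake of the Cmpd 1 group set that ration a week later. That intake was under the intake of the Obese group at the start and came close to it by the end. Whether intake bears on the lack of calls was not tested. limma-voom and DESeq2 also called 0 members, and 4 members had an unadjusted p under 0.05 in edgeR, beside 10.7% of all genes. These were Slc2a1, Slc2a8, Slc2a9 and Slc2a6, all higher in the Food matched group, with log2 fold changes of 0.37 (adjusted p = 0.21), 0.18 (adjusted p = 0.22), 0.14 (adjusted p = 0.41) and 0.42 (adjusted p = 0.42). For Slc2a4 the 95% interval of the log2 difference was −0.39 to 0.02, which still allows a fall of up to 0.39. Slc2a8 was the 1 member whose rats did not overlap, beside 2.04% of all genes.

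Each of the other 2 obese groups can also be set against the same 5 Lean rats, so these comparisons share their controls with each other and with the Obese comparison. In Cmpd 1 against Lean rats 16.6% of all genes were called, and of the members Slc2a6 rose (5.66-fold) and Slc2a4 fell (1.74-fold lower), where 7.47% of all genes were higher and 9.11% lower. With the adjusted p alone 5 members passed, beside 39.0% of all genes, and the rats of 3 did not overlap, beside 24.6%. Among those 5 was Slc2a12 (log2 fold change −0.56, adjusted p = 0.013), which was highest in Lean rats 1 and 2. Over 29 alternatives, which include leaving both out, it ranged from −0.64 to −0.22, with adjusted p of 0.0051 to 0.26. In Food matched against Lean rats 25.3% of all genes were called, 12.5% higher and 12.8% lower, and of the members 3 rose and 2 fell. With the adjusted p alone 7 members passed, beside 52.2% of all genes, and the rats of 5 did not overlap, beside 36.6%. Slc2a6 was 7.77-fold higher, Slc2a9 1.6-fold higher and Slc2a1 1.59-fold higher, while Slc2a4 was 2.94-fold lower and Slc2a12 1.54-fold lower. The log2 fold changes were 2.96 (adjusted p = 5.8e-10) for Slc2a6, 0.68 (adjusted p = 1.6e-08) for Slc2a9, 0.67 (adjusted p = 4.2e-05) for Slc2a1, −1.56 (adjusted p = 2.7e-10) for Slc2a4 and −0.62 (adjusted p = 0.0041) for Slc2a12.

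Of these 5 calls the one of Slc2a12 rested on single animals. It was lost without Lean rat 1 (−0.58), without Lean rat 2 (−0.43) and without Food matched rat 3 (−0.57), and without both Lean rats 1 and 2 the log2 fold change was −0.29 (adjusted p = 0.11), in a range of adjusted p of 0.0013 to 0.11 over 29 alternatives. The other 4 calls held in all 29 alternatives. Macrophage markers were called in the Food matched to Lean comparison as 4 higher and 1 lower of 8, and adipocyte markers as 0 higher and 5 lower of 6.

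The 3 genes called higher in Food matched against Lean rats, Slc2a1, Slc2a6 and Slc2a9, are shown with the 250 bases before their annotated start, to set their promoters side by side. The sequences are those of RefSeq on GRCr8, a later build than the rn6 of the counts, in the direction of the gene, and 7 of the 10 members had an entry, with none for Slc2a3, Slc2a4 and Slc2a10. Capitals mark matches, on either strand, to 5 short motifs. The GC box was searched as GGGCGG and the E-box of ChREBP and related factors as CACGTG. The core of the hypoxia response element was searched as ACGTG, which is also contained in the E-box. The CCAAT box was searched by its own letters, and the core of sites of PU.1, a factor of blood cells, as GAGGAA.
Slc2a1: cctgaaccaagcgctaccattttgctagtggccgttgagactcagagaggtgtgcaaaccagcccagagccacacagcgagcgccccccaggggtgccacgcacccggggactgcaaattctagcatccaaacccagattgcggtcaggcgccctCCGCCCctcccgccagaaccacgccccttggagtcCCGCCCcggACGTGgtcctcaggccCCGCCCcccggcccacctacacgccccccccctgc
Slc2a6: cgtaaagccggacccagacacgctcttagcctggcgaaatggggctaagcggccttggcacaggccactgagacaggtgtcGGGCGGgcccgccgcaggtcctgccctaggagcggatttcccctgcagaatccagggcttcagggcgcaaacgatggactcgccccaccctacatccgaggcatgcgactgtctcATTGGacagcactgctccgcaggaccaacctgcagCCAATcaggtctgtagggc
Slc2a9: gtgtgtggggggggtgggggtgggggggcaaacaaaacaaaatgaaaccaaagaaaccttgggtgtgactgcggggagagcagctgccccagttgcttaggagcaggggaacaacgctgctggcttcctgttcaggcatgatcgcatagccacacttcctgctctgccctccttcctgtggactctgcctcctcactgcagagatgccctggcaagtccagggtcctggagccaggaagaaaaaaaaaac

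The Slc2a1 stretch (chr5:138002272-138002521, plus strand) has GC boxes 95, 60 and 35 bases before the start on the other strand and the hypoxia core 51 bases before it. The Slc2a6 stretch (chr3:30753288-30753537, minus strand) has a GC box 169 bases before the start, and CCAAT at 54 bases on the other strand and at 19 bases on the strand of the gene. No match to any of the 5 was in the Slc2a9 stretch (chr14:76560705-76560954, plus strand), so no motif searched was common to the 3. Among 33469 RefSeq promoters of the same length the GC box occurred in 30.5%, the E-box in 5.59%, the hypoxia core in 16.6%, the CCAAT box in 34.0% and the PU.1 core in 23.3%. The GC content was 68.4%, 63.6% and 57.2% in Slc2a1, Slc2a6 and Slc2a9, against a median of 51.2% for all promoters. A match of letters is a description and was not tested as a binding site.

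The remaining members were called in 0 of 6 comparisons. Slc2a8, an intracellular hexose carrier (GLUT8), lay at 24.8 ± 1.51 CPM in Cmpd 1, 26.3 ± 1.00 CPM in Food matched, 23.2 ± 0.582 CPM in Obese and 21.5 ± 1.96 CPM in Lean rats. It passed the adjusted p against Lean rats in the Cmpd 1 group, by 0.21 (adjusted p = 0.0067) on the log2 scale, and in the Food matched group, by 0.29 (adjusted p = 1.9e-04), at folds of 1.15 and 1.23. Slc2a10, which encodes GLUT10 and whose loss causes arterial tortuosity in humans, ranged from 7.70 to 10.5 CPM over the 20 animals and passed the test in 0 of 6 comparisons. Slc2a3, the high-affinity carrier GLUT3 of neurons, ranged from 0.291 to 0.957 CPM and also passed in 0 of 6. Slc2a3 had few reads, and its 95% interval for Obese against Lean rats was −0.65 to 0.63 on the log2 scale. A change of 1.5-fold either way was therefore not excluded.

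The spread between animals of a group differed among the members. The coefficient of variation, taken as the median over the 4 groups, was lowest for Slc2a8 (4.94%), Slc2a10 (5.51%) and Slc2a9 (6.86%). It was highest for Slc2a3 (32.8%), Slc2a6 (21.99%) and Slc2a5 (21.96%). Slc2a12 had 13.8%, at a mean of 2.55 CPM, against 2.95 CPM for Slc2a6 and 2.91 CPM for Slc2a5.

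For each member called in at least 1 comparison, the protein-coding genes with the most similar profile over the 20 libraries were listed, by the root mean square difference of centred log2 CPM over 12608 genes. For Slc2a4 these were Cdo1 (0.120), Prkd1 (0.134) and Tst (0.144), where the median gene was at 0.647. Cdo1, cysteine dioxygenase, averaged 1308 ± 101 CPM in the Cmpd 1 group, 802 ± 103 CPM in the Food matched group, 946 ± 133 CPM in the Obese group and 2229 ± 264 CPM in the Lean group. For Slc2a6 the nearest were Parvg (0.226), Fam20c (0.241) and Emb (0.247), with a median gene at 1.19. Parvg, a parvin of blood cells, was at 14.9 ± 3.29 CPM in Cmpd 1, 25.1 ± 5.01 CPM in Food matched, 20.5 ± 4.83 CPM in Obese and 3.58 ± 0.818 CPM in Lean rats. For Slc2a9 they were Cfl1, P4hb and Mapre1 (0.0618 to 0.0676, median 0.325), for Slc2a1 Jdp2, Homer3 and Cdca4 (0.148 to 0.156, median 0.352), for Slc2a5 Map3k6, Sema6b and C1galt1 (0.264 to 0.273, median 0.433), and for Slc2a12 they included Myl9 (0.153) and Phka1 (0.172, median 0.374). These distances describe the libraries only, since the samples share their groups.

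Other genes of glucose handling were counted in 5 lists. The counts called in Obese against Lean rats stand beside 22.3% of all genes, 11.3% higher and 11.0% lower. Of 20 genes of GLUT4 vesicle traffic, 0 were called higher and 1 lower in Obese against Lean rats, with a median log2 fold change of −0.03, where the median of all genes was −0.01. The 1 called was Tbc1d4 (AS160), the Akt substrate that holds GLUT4 vesicles back, at 31.9 ± 2.13 CPM in Cmpd 1, 23.4 ± 2.18 CPM in Food matched, 25.5 ± 1.84 CPM in Obese and 39.99 ± 5.33 CPM in Lean rats (log2 fold change −0.65, adjusted p = 1.6e-06). Of 8 genes from the insulin receptor to Akt, 0 were higher and 2 lower, with a median of −0.33. Irs1, a substrate of the insulin receptor, was at 16.7 to 23.4 CPM in Obese and 24.6 to 48.1 CPM in Lean rats (log2 fold change −0.86, adjusted p = 1.0e-04). Pik3r1, the regulatory subunit of PI3-kinase, was at 66.1 to 83.1 CPM in Obese and 91.99 to 149.6 CPM in Lean rats (log2 fold change −0.79, adjusted p = 2.4e-05). In both cases the groups did not overlap.

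Of 14 genes of the first steps of hexose use 12 were in the table and tested, with 1 called higher and 3 lower and a median of −0.03. Hk3, the hexokinase of white blood cells, was at 57.5 to 94.7 CPM in Obese and 1.6 to 12.9 CPM in Lean rats, 11.1-fold higher (log2 fold change 3.47, adjusted p = 1.8e-07). Pfkm, the muscle phosphofructokinase, was called lower with a log2 fold change of −1.59, and at −0.47 without Lean rats 1 and 2 it fell under the fold threshold. Gys1, glycogen synthase of muscle and fat, had a log2 fold change of −0.62 with all rats and −0.56 without those 2, also under the threshold.

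Of 12 other sugar carriers 6 were tested, and 1 was called lower, with a list median of −0.28. It was Slc5a1, the sodium-glucose cotransporter of gut and kidney, at 0.0292 to 0.171 CPM in Obese rats and 0 to 2.34 CPM in Lean rats. The highest value was that of Lean rat 5, and without it the log2 fold change turned to 0.20 (adjusted p = 0.86). Of 15 regulators of the transporter genes and proteins, 0 were higher and 2 lower, with a median of −0.07. These were Mlxipl (ChREBP), a glucose-responsive transcription factor, at a log2 fold change of −1.10 (adjusted p = 1.2e-06), and Nr1h3 (LXRα), a sterol receptor, at −0.59 (adjusted p = 9.2e-09). Nr1h3 lay at the fold threshold and was under it in 9 of 29 alternatives.

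In Cmpd 1 against Food matched rats the 5 lists held 1 called gene among 61 tested, beside 6.19% of all genes. It was Hk3, at 35.3 to 64.4 CPM in Cmpd 1 and 73.2 to 133 CPM in Food matched rats. Its log2 fold change was −1.04 (adjusted p = 0.029), and it lost its call in 5 alternatives that each left out 1 rat. With the adjusted p alone 14 genes of the lists were higher and 9 lower, beside 22.8% of all genes in either direction, and the 4 named next each have the smallest adjusted p of their list. Akt2, the Akt isoform most tied to insulin action, was higher in the Cmpd 1 group (268 ± 23.5 CPM, against 187 ± 19.01 CPM in the Food matched group), and the log2 difference was 0.52 (adjusted p = 8.7e-05). Cebpa, a transcription factor of fat cells that also drives Slc2a4 in mouse adipocytes, had a log2 fold change of 0.37 (adjusted p = 0.0020), and Vamp2, the vesicle SNARE of GLUT4 compartments, of 0.28 (adjusted p = 3.8e-04). Slc50a1, a sugar carrier of another family, had a log2 fold change of 0.15 (adjusted p = 0.022, and 0.0075 to 0.073 over 29 alternatives). The list medians were 0.01 for GLUT4 vesicle traffic, 0.16 for insulin receptor to Akt, −0.01 for first steps of hexose use, −0.10 for other sugar carriers and 0.12 for the regulators, with 0.01 for all genes.

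**Figure D5:**
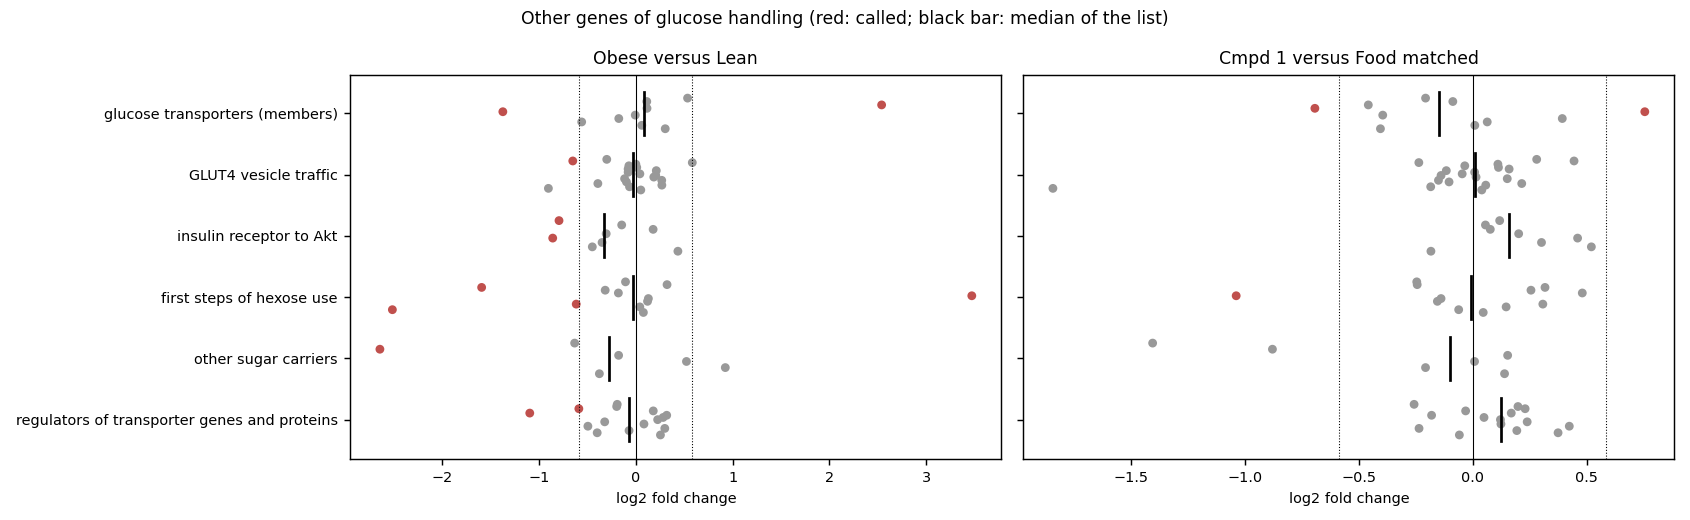
Log2 fold changes of the transporter genes and of 5 lists of glucose handling genes for 2 comparisons, Obese versus Lean on the left and Cmpd 1 versus Food matched on the right, 1 point per gene, red where called, with a black bar at the list median and dotted lines at a fold of 1.5. In Obese versus Lean rats Hk3 is at 3.47, Slc2a6 at 2.54 and Slc5a1 at −2.64.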

How the data were processed

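The deposited values are raw read counts for Ensembl genes in 20 iWAT libraries from a stranded mRNA kit, made by the authors with featureCounts on unique alignments, without scaling or filter. Their methods name STAR and rn6, but the notes of the submitters list STAR 2.5.2, Subread 1.5.1 and the human build GRCh38, although the genes are rat. A gene was dropped if 10 libraries (50%) or more lacked reads of it, leaving 17653 of 32545. edgeR 4.0.16 (R 4.3.3) fitted 1 quasi-likelihood model of 4 groups with TMM scaling, with Benjamini-Hochberg adjustment across those genes. A call needed a fold over 1.5 and an adjusted p under 0.05, as in the study's methods. RPKM used the gene length in the table. limma 3.58.1 (voom) and DESeq2 1.42.0 were alternatives. The fit was first tested on simulated data. All members were named, with, from each of 5 lists, up to 3 called genes of smallest adjusted p (otherwise the first), and 3 similar genes per called member. Members and lists were chosen with earlier results of these data known. The 5 rats per group are separate animals, numbered without pairing. Some single genes are not reported here.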

Additional observations from a re-analysis of the deposited data

How the results depend on the processing

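Of 940 values for single genes with 1 rat left out, 893 kept direction and side of the threshold, and of 422 under other alternatives 405 did. Both tallies include fits that left out only rats of groups not compared, which cannot remove a compared value. Without a fold threshold 5 members differed in Obese versus Lean, 5 in Cmpd 1 versus Food matched, 5 in Cmpd 1 versus Lean and 1 in Cmpd 1 versus Obese, and library size alone also gave 1 in the last. With 1 rat left out the number of called members was 2 to 3 in Obese versus Lean, 1 to 2 in Cmpd 1 versus Food matched, 0 to 1 in Cmpd 1 versus Obese, 0 to 0 in Food matched versus Obese, 2 to 3 in Cmpd 1 versus Lean and 4 to 6 in Food matched versus Lean. Signs turned for values near 0. For Slc2a3 in Obese versus Lean the log2 fold change was 0.0029 with no filter, 0.0047 with filterByExpr, 0.00047 with those 2 groups alone, and −0.28 to 0.16 with 1 rat left out. For Slc2a10 in Cmpd 1 versus Food matched it was −0.00059 with DESeq2's size factors, −0.015 with no filter, −0.0039 with DESeq2, and −0.019 to 0.035 with 1 rat left out. With 1 rat left out it was −0.0011 to 0.27 for Slc2a5 in Obese versus Lean, −0.0013 to 0.15 for Slc2a12 in Cmpd 1 versus Food matched, and −3.06 to 0.20 for Slc5a1 in Obese versus Lean. The cause was not tested. Same-numbered rats of compared groups deviated with correlations of −0.10 to 0.15, so the numbers were not taken as pairs, and with the replicate number as a block the number of called members stayed at 2, 2, 0, 0, 2 and 5 in the order above. Depth limits Slc2a3 and Slc2a6 in Lean rats most.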
